A study of Homo sapiens with 9 samples.

Results

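The change in messenger RNA during recovery from oxygen and glucose deprivation was measured in hCMEC/D3 cells, an immortalised human brain microvascular endothelial line that stands in for the blood-brain barrier in culture. Cells taken straight after 4 h without glucose in the medium, under 95% N2 and 5% CO2 (OGD, n = 3) were compared with cells that had the same deprivation and then 16 h in normal medium under 21% O2 and 5% CO2 (OGD/R, n = 3). Untreated control cultures (n = 3) were not part of the comparison; they entered the shared estimate of the spread, and their levels are given beside some genes as a background. Genes were taken into the comparison where they reached 1 FPKM (fragments per kilobase of transcript, scaled to the mapped fragments of the library) in at least 3 of the 9 libraries, which 10818 of the 15570 listed genes did. The labels number the replicates without saying that each was its own culture. The p-values thus reflect the spread between libraries alone, which may be technical. Medium and gas were changed together with time, so their parts in any difference cannot be told apart.

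Deprivation of oxygen and glucose is a laboratory stand-in for the loss of blood flow in cerebral infarction. Cells short of glucose or oxygen misfold proteins in the endoplasmic reticulum (ER), where the sensors IRE1, PERK and ATF6 switch on chaperones, degradation factors and, through the translation factor eIF2 and the transcription factor ATF4, amino acid synthesis and the death-linked factor CHOP. Low oxygen also stabilises HIF-1, which drives glycolytic enzymes, CA9 and VEGFA. When oxygen and glucose return, endothelial cells of the barrier can show inflammatory adhesion molecules and rebuild junctions and matrix.

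The 6 libraries of the comparison had FPKM that summed to 585947 to 605818 (OGD) or 442696 to 449248 (OGD/R). The 100 most abundant genes took 44.8 to 46.1% of FPKM in OGD and 28.1 to 31.9% in OGD/R, and cytosolic ribosomal protein genes 31.0 to 32.6% and 14.2 to 18.3%. Read depth is unknown, and with it the counting error of each value. The endothelial label was checked against 15 defining markers, 1 of which had no row. ENG, MCAM, FLI1 and EGFL7 read at least 4.14 FPKM in each of the 6 libraries. VWF, KDR, FLT1, TEK, CLDN5 and ERG read at most 0.191 FPKM in any library. TIE1 read at most 0.42, ESAM at most 1.36, PECAM1 at most 1.55 and CDH5 at most 2.62. Most of the defining markers thus read low. Of markers of other cell types, PTPRC, AIF1 and CX3CR1 (leukocytes and microglia), EPCAM and CDH1 (epithelium) and RBFOX3 (neurons) read at most 0.104 FPKM in any library. Other members of those lists were expressed: in the 6 libraries the keratin gene KRT18 read 119 to 247 FPKM and KRT8 8.92 to 11.7, the macrophage marker CD68 20.6 to 27.2, CD14 0.653 to 2.55 and the tubulin gene TUBB3 16.1 to 23.3. Where a gene overlaps another coding gene, or has a close copy such as HSPA1A and HSPA1B or the many ribosomal protein and ferritin pseudogenes, reads can be shared and the value is uncertain; of the genes described below this overlap applies to ABCB1, ABCG2, ACAT2, C19orf33, CLDN1, CLSTN1, CTNNA1, DDIT3, DERL2, FABP3, FAM162A, GABARAP, JUNB, MTHFD1, NFKBIZ, PDIA6, PLK1, PROCR, SAT1, SHMT2, SLC6A6, SREBF1, SYS1-DBNDD2, TAGLN, TAPBP, TIMP1, TIMP2, TIMP3, TNFRSF10B and ZC3H11A.

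Recovery moved most of the transcriptome. On the deposited scale 5770 genes were higher in OGD/R (53.3% of those tested) and 1878 were lower (17.4%), by limma on log2(FPKM + 1) with Benjamini-Hochberg adjusted p under 0.05. Genes said to rise or fall passed this test, folds are ratios of the group means of FPKM, and the added 1 makes the log2 changes of low genes too small. At least 2-fold changes were called for 1840 genes upward (17% of those tested) and 381 downward (3.52%). All 3 OGD/R replicates exceeded all 3 OGD replicates for 6250 genes (57.8%) and lay below them for 2209 (20.4%). The genes that rose had a median of 4.75 FPKM in OGD and 9.99 in OGD/R, whereas those that fell were abundant messages with medians of 48.8 and 30.1 FPKM.

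This imbalance depended on the scale. The median log2 fold change over all tested genes was 0.39, so the medians of many lists below are also given relative to that shift. Counts of called list members are likewise to be read beside the shares of all tested genes, 53.3% higher and 17.4% lower. With median-of-ratios scaling, which sets the typical gene to no change, 3432 genes were higher (31.7%) and 3783 lower (35%). With libraries scaled to a common sum, 7748 of the 10818 tested genes were higher and 840 lower. List counts given for either scaling are to be read beside these numbers. Of the genes called at least 2-fold on the deposited scale, 1765 of the 1840 higher and 356 of the 381 lower kept their direction and an adjusted p under 0.05, though not always a 2-fold size, under each of the 4 other scalings run (median-of-ratios, quantile, common sum, and removal of the trend with transcript length). FPKM are relative to each library's total, and RNA per cell was not measured.

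**Figure D1:**
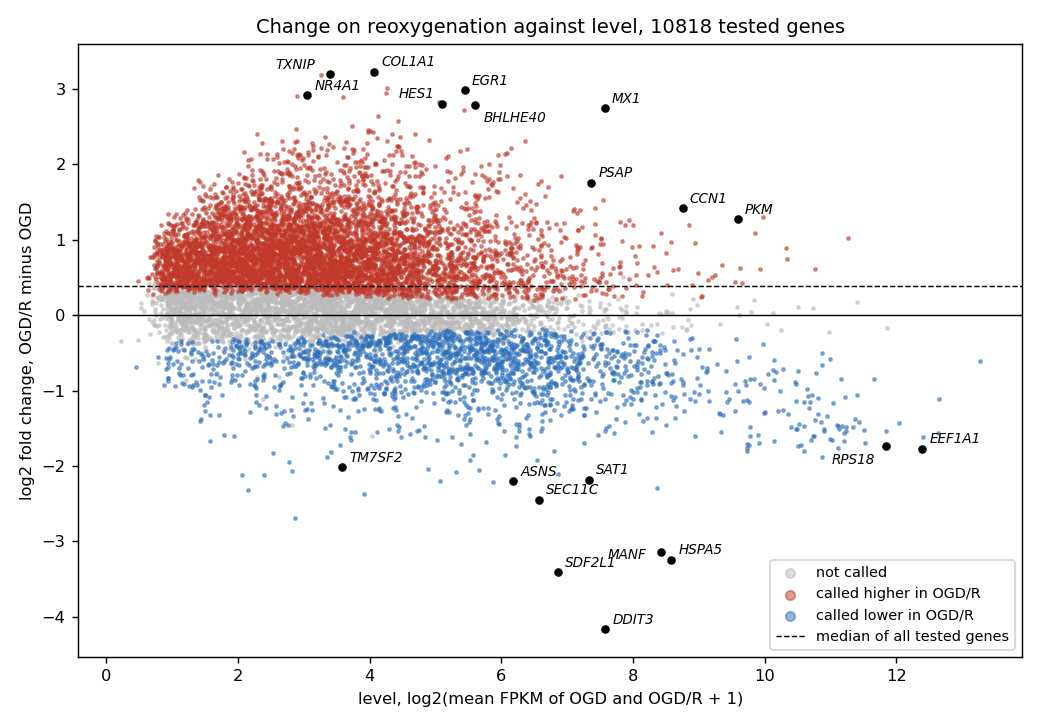
Log2 fold change (OGD/R minus OGD, vertical axis) against level (log2 of the mean FPKM of both groups plus 1, horizontal axis) for 10818 tested genes, coloured by limma call; the dashed line is the median of all genes, 0.39. DDIT3, SDF2L1, HSPA5 and MANF lie lowest among the labelled genes, at log2 changes of -4.16 to -3.14, and abundant ribosomal and translation genes such as RPS18 and EEF1A1 form the lower right arm.

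The largest falls were in genes of the ER stress response. DDIT3 (chr12:57516588-57520517), which encodes CHOP, read 354, 359.5 and 371 FPKM in OGD replicates 1 to 3 and 21.2, 18.7 and 18.2 FPKM in OGD/R. HSPA5 (chr9:125234853-125241343), the ER chaperone BiP, read 747, 664 and 662 FPKM in OGD and 69.02, 77.1 and 70.4 FPKM in OGD/R, a 9.57-fold fall (log2 change -3.24 ± 0.089 SE, limma adjusted p = 6.99e-10). The OGD/R libraries of HSPA5 lay within a few FPKM of each other and near the control range of 65.4 to 74.4 FPKM, and the groups were far apart. SDF2L1 (chr22:21642302-21644299), a cofactor of BiP, went from 201, 219 and 213 to 18.5, 20.2 and 18.4 FPKM. MANF (chr3:51385291-51389397), a secreted ER stress factor, went from 611, 644 and 603 to 71.4, 73.9 and 62.9 FPKM. DDIT3 fell by 18.7-fold, SDF2L1 by 11.1-fold and MANF by 8.92-fold. Groups without overlap were a condition for naming genes among the largest falls. The OGD/R libraries of DDIT3 and SDF2L1 lay below every control library (23.9 to 36.1 and 27.3 to 35.8 FPKM).

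Other genes with the steepest falls were outside the stress lists. SEC11C, a subunit of the signal peptidase, fell from 164, 153 and 162 to 29.9, 26.7 and 28.9 FPKM. RPL22L1, a paralogue of the ribosomal protein gene RPL22, went from 535, 556 and 557 to 111, 102 and 121 FPKM. FABP3, a fatty acid carrier whose gene overlaps ZCCHC17, fell 6.19-fold, and C19orf33, which overlaps YIF1B, fell 4.46-fold with OGD/R libraries at 30.5, 10.9 and 21.8 FPKM. The readthrough gene SYS1-DBNDD2 was listed at 11.3, 7.66 and 13.99 FPKM in OGD and 4.94, 0 and 0 in OGD/R; its call (adjusted p = 0.0087) was lost with a robust prior and without OGD/R replicate 2 (0.0636 and 0.0515), and such listed zeros can be failed estimates.

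The steepest rises were of mixed function. COL1A1 (chr17:50184101-50201631), the main chain of type I collagen, rose from 1.99, 1.98 and 2.76 FPKM to 24.9, 34.2 and 28.9 FPKM (log2 change 3.22 ± 0.19 SE, limma adjusted p = 1.2e-07). NLGN2, a synaptic-type adhesion protein, went from 0.538, 1.64 and 0.675 to 16.2, 16.04 and 16.5 FPKM, and CLSTN1, a cargo adaptor for kinesin that overlaps PIK3CD, from 3.16, 3.14 and 3.92 to 29.4, 36.5 and 32.3 FPKM. POLR2A, the largest subunit of RNA polymerase II, rose 16.3-fold to 10.8, 13.6 and 12.1 FPKM, and SRRM2, a scaffold of nuclear speckles, rose 10.3-fold to 28.8, 34.7 and 35.8 FPKM. TAPBP, which loads peptides onto MHC class I and overlaps RGL2, rose 7.95-fold. ZC3H11A, which shares its locus with ZBED6, was uneven within OGD, at 0.278, 6.19 and 1.39 FPKM, against 18.03, 19.7 and 21.4 FPKM in OGD/R. The groups did not overlap for any of these rises, which was a condition for naming them.

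**Figure D2:**
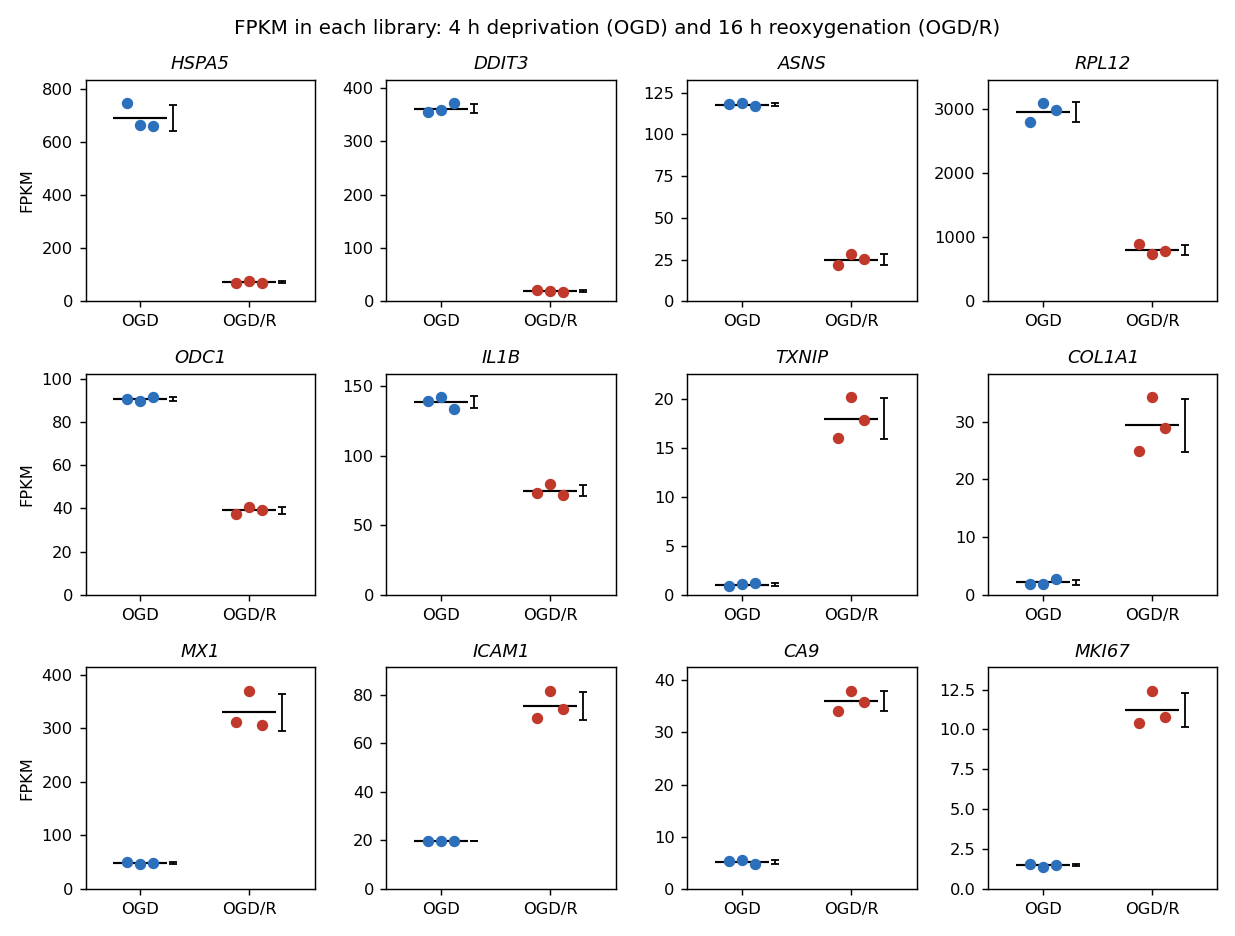
FPKM (vertical axis, linear from 0) of 12 genes in each OGD and OGD/R library; points are libraries, the horizontal line is the mean and the bar beside it the SD of 3. The first 6 panels, HSPA5 to IL1B, show genes lower in OGD/R and the other 6 genes higher, with no overlap between the groups in any panel. For HSPA5, DDIT3, ASNS, TXNIP and COL1A1 this was a condition of choice. The other genes were among the largest called changes of a list in their direction. Of all tested genes 57.8% were higher and 20.4% lower without overlap.

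Among ER chaperones and their cofactors, 12 of 17 fell and 0 rose, 8 of them at least 2-fold lower, and the list median was -0.94 (relative to all genes -1.33). With the trend of levels with transcript length (described below) removed, 15 fell and 1 rose, and the relative median was -1.41. DNAJB9, a cochaperone of BiP, fell from 58.9, 53.8 and 49.2 to 9.63, 12.1 and 11.4 FPKM. Of ER disulfide isomerases and oxidases, 6 of 16 fell and 5 rose. On a common sum 2 fell and 10 rose, a scale on which 7748 of all 10818 genes rose. The median relative to all genes was -0.36 on the deposited scale and -0.37 on a common sum. PDIA6 fell 1.93-fold and the oxidase ERO1B 2.605-fold, while QSOX1, a sulfhydryl oxidase of the secretory pathway, rose from 17.1, 15.7 and 17.4 to 44.4, 51.2 and 53.02 FPKM and PDIA5 rose 1.98-fold.

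ER-associated degradation, which returns misfolded proteins to the cytosol, had members that moved in both directions. Of its 20 genes 13 rose and 4 fell, against 53.3% and 17.4% of all genes (median 0.53, relative 0.14). With median-of-ratios scaling the counts were 7 and 7, and with the length trend removed 5 and 7. HERPUD1 fell from 136, 120.3 and 130.4 to 41.9, 43.3 and 39.8 FPKM and DERL2 fell 2.43-fold. Of 9 sensors and transducers of the unfolded protein response 4 rose and 1 fell; under quantile normalization these were 4 and 5. XBP1, the transcription factor spliced by IRE1, was the 1 that fell, from 87.4, 87.3 and 87.6 to 46.99, 54.05 and 48.8 FPKM. CREB3L1, an ER-anchored transcription factor linked to collagen secretion, rose from 4.78, 3.72 and 4.56 to 19.4, 21.1 and 18.4 FPKM, and ATF6B rose 2.76-fold.

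The ER stress element (ERSE), a CCAAT box and a CCACG box held 9 bases apart, was looked for on both strands in the 250 bases before each gene's start, in RefSeq promoters of GRCh38.p14 that matched 8999 of the 10818 tested genes. It was found in 5 of 16 ER chaperone promoters (31.2%) and in 14 of all 8999 (0.156%); CCAAT alone was in 93.8% and 35.7%. It was in 7 of 321 promoters of genes at least 2-fold lower and in 0 of 1511 of genes at least 2-fold higher. The windows below are shown because they hold the element in genes that fell, each on the strand of its gene with the element in capitals.
HSPA5: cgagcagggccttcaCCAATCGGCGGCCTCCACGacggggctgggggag
CRELD2: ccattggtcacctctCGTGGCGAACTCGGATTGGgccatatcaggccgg
CALR: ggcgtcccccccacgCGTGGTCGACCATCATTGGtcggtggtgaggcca
HSP90B1: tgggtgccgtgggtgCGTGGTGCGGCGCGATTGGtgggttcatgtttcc
XBP1: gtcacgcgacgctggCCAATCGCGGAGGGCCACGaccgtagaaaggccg
These windows were at chr9:125241376-125241424 (HSPA5), chr22:49918539-49918587 (CRELD2), chr19:12938369-12938417 (CALR), chr12:103930306-103930354 (HSP90B1) and chr22:28800588-28800636 (XBP1). The element began 66, 80, 225, 89 and 52 bases before the gene's start, and in CRELD2, CALR and HSP90B1 it lay on the other strand, so its letters run CGTGG to ATTGG there. The log2 changes of these genes were -3.24, -2.05, -1.70, -1.11 and -0.80. A match of letters is a description and says nothing of binding.

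Regulators around ATF4 and CHOP fell in most cases. Of 17, 10 fell and 5 rose (median -0.61; 7 and 7 on a common sum). ATF4 itself went from 534, 518 and 549 to 235, 249 and 248 FPKM, a 2.19-fold fall. NUPR1 fell 4.41-fold, CHAC1, which degrades glutathione, 3.24-fold, and TRIB3, a pseudokinase induced by CHOP, 2.39-fold. ATF3, another stress factor of the same family, moved the other way, from 9.97, 8.92 and 10.3 to 21.2, 28.3 and 25.6 FPKM, and PPP1R15B, which keeps eIF2 dephosphorylated, rose 2.38-fold.

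Enzymes of asparagine, serine and one-carbon metabolism showed 10 falls and 3 rises among 14. ASNS, asparagine synthetase, fell from 118, 119 and 117 to 21.7, 28.2 and 25.1 FPKM, below the control range of 58.4 to 65.7 FPKM. PSAT1 of serine synthesis fell 2.64-fold, SHMT2 2.23-fold and PYCR1 of proline synthesis 2.198-fold, whereas the cytosolic folate enzyme MTHFD1 rose 2.22-fold. Amino acid transporters divided: 8 of 17 rose and 4 fell, against 53.3% and 17.4% of all genes. With the length trend removed 5 rose and 7 fell. SLC7A11, the cystine carrier, fell from 11.1, 9.09 and 9.57 to 3.396, 3.99 and 4.24 FPKM, and SLC3A2, the heavy chain it shares with SLC7A5, fell 1.81-fold, while SLC7A5 rose from 17.6, 17.4 and 17.9 to 37.7, 45.99 and 46.1 FPKM and the taurine carrier SLC6A6 rose 4.42-fold. Cytosolic aminoacyl-tRNA synthetases had 7 falls and 4 rises among 20 (3 and 11 on a common sum), led by SARS1, which fell 1.95-fold.

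Every tested cytosolic ribosomal protein gene was lower after reoxygenation. All 79 were called, 66 of them at least 2-fold, with log2 changes from -1.88 to -0.56 and a median of -1.43 (relative -1.82). RPL12 read 2784, 3079 and 2982 FPKM in OGD and 884, 739 and 778 FPKM in OGD/R, and RPS18 5259.9, 5923 and 5623 and 2056, 1282 and 1811 FPKM. OGD/R replicate 2 was the lowest of its group for RPL12, RPL34, RPL31 and RPS18, all of which lay clear of OGD. With quantile normalization, 60 of the 79 were lower and 2 higher (relative median -0.46), and with the length trend removed 75 were lower (relative median -1.07). Of single translation factors, EEF1A1 fell 3.39-fold from 9056, 8572 and 7272 FPKM and EEF1B2 3.49-fold, whereas the initiation scaffold EIF4G1 rose from 12.7, 12.1 and 13.2 to 53.9, 58.6 and 62.02 FPKM. Over all 45 translation factors 17 rose and 17 fell (8 and 28 with median-of-ratios scaling). Among 34 ribosome biogenesis genes 11 rose and 11 fell (5 and 20), with the nucleolar protein NPM1 2.21-fold lower (not called with quantile normalization) and NCL, nucleolin, 2.18-fold higher.

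Mitochondrial ribosomal proteins and nuclear-encoded subunits of the respiratory chain were mostly lower too. Of 78 mitochondrial ribosomal proteins 59 fell and 6 rose (median -0.57; 30 and 16 on a common sum); MRPS33 went from 72.8, 71.2 and 70.7 to 19.2, 15.998 and 19.8 FPKM. Of 71 respiratory chain subunits 55 fell and 3 rose (median -0.63; 32 and 15 on a common sum), for example COX7C of complex IV, from 866, 943 and 913 to 425, 302 and 377 FPKM. Complex II's catalytic subunit SDHA rose 2.33-fold. ATP5F1A, the alpha subunit of ATP synthase, was called higher (adjusted p = 0.0225) on uneven OGD values of 203, 68.6 and 69.4 FPKM against 222, 240.3 and 226. ATP5ME, a small subunit, was called lower (adjusted p = 0.015) on uneven OGD/R values of 78.3, 22.9 and 53.3 FPKM against 108, 122 and 120.5. The call of ATP5F1A was lost without OGD replicate 2 or 3 or without OGD/R replicate 1 or 2 (adjusted p 0.05 to 0.0881), and that of ATP5ME without OGD/R replicate 2 (0.0898). Both calls were also lost with a robust prior, with no filter and with the length trend removed (log2 change 0.54, adjusted p = 0.351, and -0.20, adjusted p = 0.611), and that of ATP5F1A with median-of-ratios scaling (0.72, adjusted p = 0.198).

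Transcript length moved with these falls. Of 10 equal groups by length, the shortest (217 to 1412 bases) had 10.46% of its genes called higher and 62.2% lower, and the longest had 76.7% and 3.61%; the median log2 change went from -0.51 to 0.67. Within single libraries the slope of log2 level on the log2 of length, relative to the mean of all libraries, lay between -0.15 and -0.20 for OGD and between 0.13 and 0.23 for OGD/R. With this trend removed, 3228 of 10792 genes with a length were higher (29.9%) and 3165 lower (29.3%). The relative median of the respiratory chain then went from -1.02 to -0.31, of mitochondrial ribosomal proteins from -0.96 to -0.36 and of metallothioneins from -1.07 to -0.12, while that of interferon-stimulated genes went from 0.98 to 1.05. The part of library preparation or RNA quality in the trend was not tested.

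**Figure D3:**
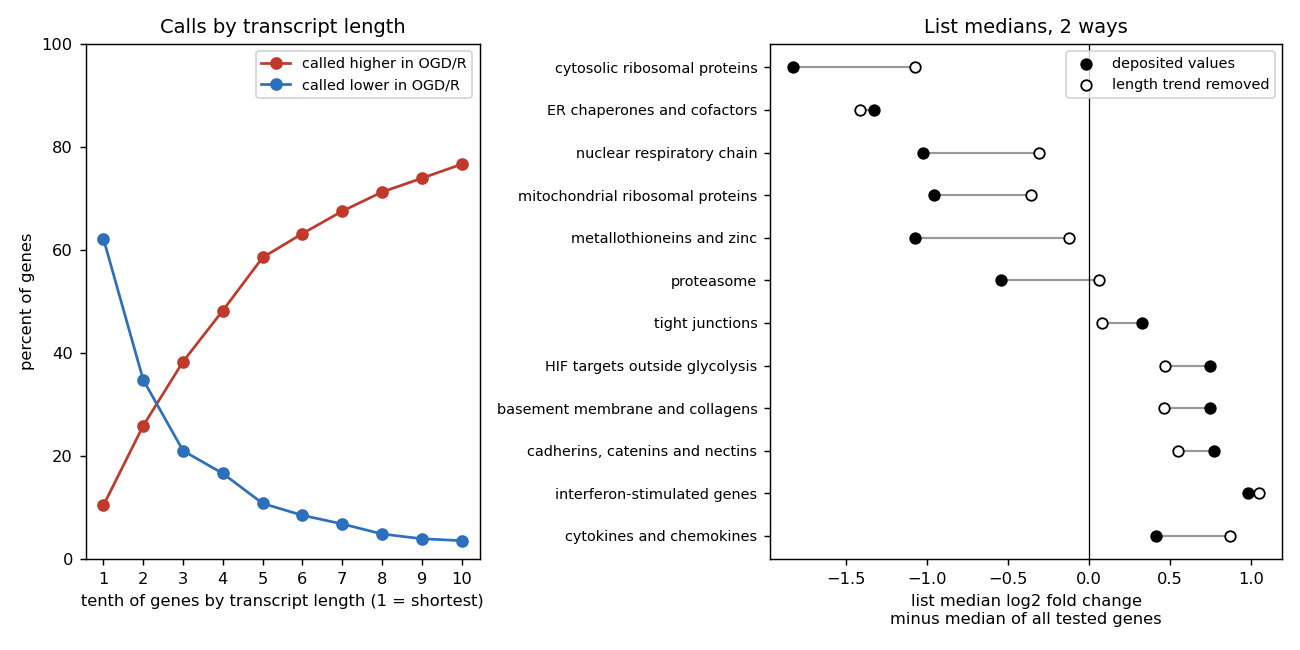
Left, percent of genes called higher or lower in OGD/R (vertical axis) in 10 equal groups of genes by transcript length (horizontal axis); right, median log2 fold change of 12 gene lists minus the median of all tested genes, on the deposited values (filled) and with the length trend removed (open). The share called higher climbs from 10.46% to 76.7% with length, and the ER chaperone and interferon medians stay near their place while the respiratory chain median moves from -1.02 to -0.31.

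Proteasome subunits, autophagy genes and lysosomal genes did not move as blocks. Of 41 proteasome genes 14 fell and 12 rose, and with a common sum 4 and 25. The median relative to all genes was -0.54 on both scales. PSMB7 of the core fell 1.83-fold and PSMD3 of the regulatory cap rose 2.44-fold. Of 29 autophagy genes 15 rose and 6 fell, against 53.3% and 17.4% of all genes (10 and 12 with median-of-ratios scaling). The lipid scramblase ATG9A rose from 3.33, 1.59 and 1.79 to 13.01, 14.1 and 13.03 FPKM. GABARAP, which coats autophagosomes, fell from 383, 429.8 and 418 to 225, 215 and 211 FPKM. Of 31 lysosomal genes 19 rose and 6 fell, near the shares of all genes (53.3% and 17.4%), and 11 and 9 with median-of-ratios scaling; the largest rise was of PSAP, the saposin precursor, at 75.4, 72.3 and 75.1 and then 235, 266 and 259.6 FPKM.

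In cholesterol synthesis 13 of 26 genes fell and 5 rose, 21 and 5 with median-of-ratios scaling and 11 and 10 on a common sum. TM7SF2, a sterol reductase, fell from 18.2, 16.5 and 19.9 to 3.71, 3.81 and 3.66 FPKM, ACAT2 2.93-fold and MVD of the mevalonate pathway 2.63-fold. SREBF1, the transcription factor SREBP-1, rose 3.78-fold. Fatty acid genes had 18 rises and 0 falls among 21, with fatty acid synthase FASN 4.42-fold higher; with median-of-ratios scaling the counts were 6 and 4.

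Of 16 genes of the MYC network and of polyamines 9 rose and 5 fell (5 and 6 with median-of-ratios scaling). ODC1, the first enzyme of polyamine synthesis, went from 90.7, 89.6 and 91.3 to 37.5, 40.8 and 39.3 FPKM, and SAT1, which starts polyamine breakdown, from 263, 262 and 265 to 50.7, 58.98 and 62.8 FPKM, whereas MYC rose 2.11-fold. Of 29 antioxidant genes 10 rose and 9 fell (5 and 16 with median-of-ratios scaling). Thioredoxin, TXN, fell from 1383, 1521 and 1465 to 640.0, 539 and 609.8 FPKM, HMOX1, heme oxygenase, fell 1.37-fold (log2 change -0.028 on a common sum, adjusted p = 0.814), and GSR, glutathione reductase, rose 1.98-fold. Iron handling genes had 8 rises and 6 falls among 15, against 53.3% and 17.4% of all genes (4 and 7 with median-of-ratios scaling). Ferritin light chain FTL fell 3.39-fold and the transferrin receptor TFRC rose 2.49-fold. Of 8 metallothionein and zinc genes 4 fell and 1 rose, and MT1E fell from 213, 236 and 247 to 75.3, 67.7 and 68.97 FPKM. Of 22 heat shock chaperones 14 rose and 2 fell, with median-of-ratios scaling 6 and 8; BAG3 rose 3.68-fold and HSP90AB1 2.31-fold, and the constitutive HSPA8 fell 1.88-fold, a fall not called with quantile normalization (log2 change -0.100, adjusted p = 0.359).

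TXNIP (chr1:145992435-145996579), an arrestin that restrains glucose uptake and is switched on by glucose, rose from 0.934, 1.09 and 1.22 FPKM to 16.02, 20.2 and 17.9 FPKM, a 16.7-fold rise (log2 change 3.19 ± 0.12 SE, limma adjusted p = 5.05e-09). The OGD/R libraries lay within the span of control levels, 17.3 to 19.5 FPKM, or just beyond it. The related ARRDC3 went from 9.999, 7.899 and 8.304 to 28.7, 41.3 and 36.6 FPKM. OGA, the enzyme that strips O-GlcNAc sugars from proteins, rose from 4.19, 3.98 and 3.91 to 24.04, 28.04 and 26.6 FPKM.

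Most genes of glucose use were higher after recovery. Of 25 glycolysis and uptake genes 19 rose and 1 fell (median 0.75, relative 0.36; 13 and 2 with median-of-ratios scaling). PKM read 457, 450.0 and 444 FPKM in OGD and 1097, 1107 and 1064 in OGD/R, LDHA 856, 920.2 and 916 and 1599.9, 1697 and 1694, and the transporter SLC2A1 54.7, 52.01 and 50.7 and 94.96, 106 and 95.6. HK1 rose 3.399-fold and PFKFB3, which makes the activator of phosphofructokinase, 4.01-fold. LDHB was the 1 member that fell, 1.84-fold. The groups did not overlap for any of these genes. The same held for 57.8% (higher) and 20.4% (lower) of all tested genes.

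HIF targets outside glycolysis were mostly higher: 23 of 29 rose, 16 at least 2-fold, and 1 fell (median 1.14, relative 0.75; 19 and 6 with median-of-ratios scaling). CA9, a carbonic anhydrase, went from 5.39, 5.47 and 4.79 to 34.2, 37.9 and 35.8 FPKM, against 18.4 to 23.1 FPKM in control. VEGFA, the main angiogenic ligand, went from 32.4, 32.01 and 30.2 to 63.6, 83.97 and 71.6 FPKM. BHLHE40, a repressor tied to hypoxia and the clock, rose 7.43-fold, ANGPTL4 7.35-fold and ERRFI1, an inhibitor of the EGF receptor, 4.15-fold; FAM162A fell 1.58-fold, which was not called on a common sum. HIF1A itself rose 1.31-fold (adjusted p = 0.0119), a direction that turned with median-of-ratios scaling and with the length trend removed, and a call lost without OGD/R replicate 2 (adjusted p = 0.0529). The core letters of the hypoxia response element, ACGTG, were in 12 of 22 promoters of this list (54.5%) against 24.1% of all promoters. They were in 21.7% of promoters of genes at least 2-fold higher and in 29.3% of those at least 2-fold lower. Within the list they were in genes that rose, such as CA9, and also in FAM162A, which fell. ANKRD37, P4HA1 and INSIG2 held them too and were not called.

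Growth-responsive transcription factors were higher after 16 h. Of 17 immediate early genes 16 rose and 0 fell (median 1.07, relative 0.68), and with median-of-ratios scaling 12 and 1. EGR1 (chr5:138465479-138469303) went from 9.35, 9.303 and 7.83 to 67.99, 83.9 and 77.4 FPKM, NR4A1, an orphan nuclear receptor, from 1.21, 0.971 and 0.662 to 12.2, 15.1 and 13.6, and JUNB from 23.98, 23.1 and 25.2 to 78.01, 96.7 and 85.7. All 12 Kruppel-like factors rose; KLF10, induced by TGF-beta, rose 6.52-fold, KLF6 4.11-fold and KLF4, a factor of quiescent endothelium, 2.79-fold. With quantile normalization 8 of them were called higher. Feedback inhibitors of ERK signalling followed, with 11 of 12 higher (6 with median-of-ratios scaling). Among them was DUSP5, from 19.3, 17.2 and 20.8 to 45.6, 52.8 and 47.1 FPKM. Of 10 glucocorticoid-responsive genes 9 rose: CEBPD 3.24-fold, FKBP5 2.87-fold and the kinase SGK1 1.83-fold.

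Most tested NF-kB and cytokine genes were higher, and the interleukin 1 pair fell. Of 19 NF-kB subunits, inhibitors and targets 15 rose and 0 fell (median 1.11, relative 0.73), and of 23 cytokines and chemokines 16 rose and 2 fell (median 0.80). NFKBIZ, a nuclear cofactor of NF-kB, rose from 2.51, 2.08 and 2.11 to 12.2, 18.7 and 16.6 FPKM. IL6 rose from 41.5, 46.98 and 43.5 to 113, 145 and 124 FPKM, and CXCL8, which attracts neutrophils, from 52.5, 47.9 and 49.6 to 72.5, 96.9 and 96.1 FPKM. CSF1 rose 6.87-fold and LIF 4.18-fold. IL1B moved the other way, from 139, 142 and 134 to 73.2, 79.5 and 71.7 FPKM, still above the control libraries (24.5 to 28.6 FPKM), and IL1A went from 6.33, 6.32 and 6.91 to 1.81, 2.52 and 2.36 FPKM. No OGD/R library overlapped OGD for these cytokines, and 57.8% of all tested genes were higher and 20.4% lower without overlap.

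ICAM1, the endothelial ligand for leukocyte integrins, rose from 19.9, 19.9 and 19.8 to 70.4, 81.4 and 74.02 FPKM, a 3.79-fold rise (log2 change 1.87 ± 0.0902 SE, limma adjusted p = 3.58e-08), whereas control libraries held 21.8 to 25.1 FPKM. Of 11 tested leukocyte adhesion genes 8 rose and 0 fell (4 and 3 with median-of-ratios scaling). VCAM1 was below the filter and did not pass 0.903 FPKM in any library.

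Interferon-stimulated genes gave the highest list median among the 24 lists drawn. Short marker lists that were not drawn had higher medians. These were 2.42 for fibroblast markers (3 tested) and 1.72 for pericyte and smooth muscle markers (5 tested). Among those 5, NOTCH3 read at most 0.843 FPKM in control and 0.227 in OGD. It passed the filter through OGD/R alone (1.64 to 2.17 FPKM), so its higher level there was fixed by the filter. Of 39 tested interferon-stimulated genes 36 rose, 25 of them at least 2-fold, against 53.3% and 17% of all genes. In this list 0 fell, and its median was 1.37 (relative 0.98). MX1, an antiviral GTPase, went from 50.2, 45.9 and 48.5 to 312, 369 and 307 FPKM (log2 change 2.74 ± 0.095 SE, limma adjusted p = 2.69e-09). The OGD/R libraries of MX1 lay above the control range of 163 to 187 FPKM and the OGD libraries below it. OAS3, which senses double-stranded RNA, went from 10.7, 10.1 and 10.4 to 71.2, 79.04 and 70.98 FPKM, MX2 rose 4.76-fold and SAMD9 5.12-fold. With median-of-ratios scaling 31 rose and 2 fell, and with the length trend removed 36 rose and 0 fell.

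Promoters of this list were searched for letters of the interferon-stimulated response element, GAAA, 2 bases and GAAA, on both strands. They were in 19 of 31 promoters of the list (61.3%) and in 2.4003% of all 8999, and in 3.51% of genes at least 2-fold higher. The windows below show the match nearest the gene's start in capitals, in genes that rose and, last, in IFI27, which was not called.
OAS3: cggagagccgggcggGAAAACGAAAcc
SAMD9: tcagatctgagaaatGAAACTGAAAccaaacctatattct
IFIH1: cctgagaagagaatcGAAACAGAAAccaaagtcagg
IFIT3: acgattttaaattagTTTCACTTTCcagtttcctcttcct
IFI27: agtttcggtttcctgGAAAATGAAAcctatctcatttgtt
They lay at chr12:112938447-112938473 (OAS3), chr7:93118091-93118130 (SAMD9), chr2:162318685-162318720 (IFIH1), chr10:89327860-89327899 (IFIT3) and chr14:94110626-94110665 (IFI27), with log2 changes of 2.71, 2.14, 1.90, 1.41 and -0.22. In IFIT3 the match was on the other strand.

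Barrier junction genes rose in part. Of 16 tested tight junction genes, from 26 listed, 10 rose and 1 fell, against 53.3% and 17.4% of all genes (median 0.72, relative 0.33). With the length trend removed 5 rose and 2 fell, against 29.9% and 29.3% of all genes. The scaffold TJP1, ZO-1, went from 5.91, 5.44 and 4.66 to 15.5, 18.3 and 15.5 FPKM. The strand proteins did not pass the test on the deposited scale: OCLN, occludin, read 3.78, 2.79 and 3.27 and 3.41, 4.37 and 3.33 FPKM (adjusted p = 0.45) and CLDN1 8.62, 8.02 and 7.94 and 6.15, 8.41 and 6.902 FPKM (adjusted p = 0.224), each with overlapping groups. CLDN1 was called lower with median-of-ratios scaling, quantile normalization and the length trend removed (log2 change -0.62, -0.71 and -0.69), and OCLN was called lower with the latter pair (-0.45 and -0.54) and higher on a common sum (0.52). CLDN5, the main claudin of the barrier, was below the filter, at or under 0.101 FPKM in every library. Of 16 cadherins, catenins and nectins 14 rose, 10 at least 2-fold, and 1 fell (median 1.16). With median-of-ratios scaling 10 rose and 2 fell. JUP, plakoglobin, went from 6.18, 7.04 and 6.8004 to 32.1, 40.2 and 32.9 FPKM, CTNNA1 rose 3.01-fold and CDH5, the endothelial cadherin, rose from 0.399, 0.2698 and 0.361 to 1.86, 2.62 and 1.44 FPKM at a low level. CTNND1 (adjusted p = 0.0358) is listed at 0 in control replicate 2, and its call was lost without any one of the 6 OGD or OGD/R libraries (adjusted p 0.0534 to 0.104); its OGD and OGD/R values were 5.35, 6.71 and 4.93 and 20.6, 25.2 and 20.6 FPKM.

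Of 32 endothelial identity genes listed, 29 had a row and 16 were tested. Of these 16, 12 rose and 1 fell (median 0.88), and 10 and 3 with median-of-ratios scaling. PECAM1 reached 1 FPKM in no OGD library, and its OGD/R libraries carried it past the filter. Low genes admitted in this way can only be higher in OGD/R, which raises the count and median of such a list. ENG, endoglin, went from 6.11, 6.75 and 7.11 to 32.8, 37.95 and 30.3 FPKM, CD34 from 0.1602, 0.293 and 0.0761 to 2.699, 3.41 and 3.13 FPKM, and PROCR, the receptor of protein C, fell 1.58-fold. PECAM1 was low throughout, at 0.485, 0.458 and 0.362 and 1.25, 1.34 and 1.21 FPKM, and its rise turned to a log2 change of -0.02 with the length trend removed. Of 28 barrier transporters and receptors 18 rose and 1 fell, against 53.3% and 17.4% of all genes (12 and 4 with median-of-ratios scaling, 11 and 7 with the length trend removed); LRP1 rose 4.65-fold and CAVIN1 of caveolae 3.21-fold. The efflux pump ABCB1 read 0.598, 0.864 and 0.5204 and 1.03, 1.33 and 1.14 FPKM (adjusted p = 0.0295), a rise that turned with quantile normalization and with the length trend removed and was lost without OGD replicate 1 or 3 or OGD/R replicate 2 or 3 (adjusted p 0.0627 to 0.113), and ABCG2 0.812, 0.583 and 1.07 and 0.585, 0.749 and 0.649 FPKM (adjusted p = 0.453). ABCG2 was called lower with median-of-ratios scaling, quantile normalization and the length trend removed (log2 change -0.34, -0.60 and -0.73).

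Vessel signalling and matrix genes rose together. Of 22 VEGF, angiopoietin, Notch and ephrin genes 20 rose and 1 fell (median 1.10, relative 0.71). HES1, a repressor downstream of Notch, went from 7.65, 6.92 and 8.22 to 52.5, 68.9 and 56.1 FPKM, EFNA1 rose 4.48-fold, and the vasoconstrictor gene EDN1 went from 2.41, 2.34 and 2.44 to 10.4, 13.2 and 12.9 FPKM together with ECE1, the enzyme that matures endothelin (5.05-fold). VEGFB fell 1.53-fold, which was not called on a common sum. Of 27 basement membrane and collagen genes 24 rose, 16 at least 2-fold, and 0 fell (median 1.13, relative 0.74, 0.46 with the length trend removed): agrin, AGRN, 7.67-fold, COL1A2 6.41-fold and COL5A1 7.604-fold.

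Among 23 metalloproteinases and inhibitors 18 rose and 2 fell. MMP2, a gelatinase that degrades basement membrane, went from 9.76, 8.16 and 9.53 to 27.1, 36.4 and 30.4 FPKM and its activator MMP14 from 12.1, 11.3 and 9.28 to 36.7, 40.3 and 50.2 FPKM, while the inhibitors TIMP2 and TIMP3 rose 3.53-fold and 2.797-fold. TIMP1 rose 1.36-fold on the deposited scale and had a log2 change of -0.05 with median-of-ratios scaling. MMP9 was below the filter, at or under 0.0594 FPKM. Of 18 glycocalyx genes 13 rose and 1 fell (10 and 5 with the length trend removed), with the glypican GPC1 3.35-fold higher. Of 16 coagulation and fibrinolysis genes 10 rose and 5 fell (7 and 7 with the length trend removed): the activators PLAU and PLAT rose 2.69-fold and 3.03-fold, and TFPI2 fell 1.59-fold.

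Mesenchymal and contractile genes had 21 rises and 2 falls among 28 (13 and 6 with median-of-ratios scaling). The repressor SNAI1 went from 1.71, 1.96 and 2.62 to 13.5, 14.0004 and 13.1 FPKM and TGFB1 rose 4.57-fold, while SNAI2 fell 1.51-fold and the contractile protein gene TAGLN 1.42-fold; neither fall was called on a common sum (adjusted p = 0.29 and 0.536). Of 18 YAP and TAZ targets 16 rose and 1 fell (11 and 2); CCN1, a matrix signal, went from 242, 234 and 224 to 561, 678 and 643 FPKM, and ANKRD1 was the 1 that fell, from 154, 138 and 148 to 32.6, 45.6 and 36.9 FPKM. Markers often used for pericytes or fibroblasts moved beside these lists: PDGFRB went from 0.979, 0.972 and 1.29 to 5.46, 6.27 and 5.81 FPKM, CSPG4 rose 5.72-fold and ANPEP 6.19-fold. RGS5, another pericyte marker, was not called, at 2.84, 2.28 and 1.498 FPKM in OGD and 1.598, 0.737 and 1.44 in OGD/R, nor was the fibroblast marker LUM, at 3.12, 3.66 and 3.41 and then 2.87, 4.07 and 3.28 FPKM. Of the 9 pericyte and smooth muscle markers 5 were tested, and KCNJ8, ABCC9, DES and MYH11 stayed below 0.4 FPKM; of the 7 fibroblast markers listed, PDGFRA, DCN and COL3A1 stayed below 0.5 FPKM in every library. In bulk RNA, fewer cells of a type and less RNA per cell cannot be told apart.

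Most cell cycle genes were higher, fewer of them with median-of-ratios scaling. Of 37 G2/M and mitosis genes 33 rose and 2 fell (median 0.83, relative 0.44; 20 and 5 with median-of-ratios scaling), and of 40 G1/S and replication genes 32 rose and 1 fell (median 0.58, relative 0.19; 18 and 9 with median-of-ratios scaling). MKI67, the proliferation marker Ki-67, went from 1.53, 1.403 and 1.504 to 10.4, 12.4 and 10.8 FPKM and PLK1, a mitotic kinase, from 20.8, 21.5 and 22.4 to 74.5, 90.7 and 76.8 FPKM. CENPF rose 5.58-fold, and CCND1, cyclin D1, went from 7.74, 6.74 and 7.46 to 19.7, 24.4 and 22.3 FPKM. CDK1 and MAD2L1 were the 2 mitotic genes that fell, by 1.24-fold and 1.34-fold, and both had a log2 change above 0 when libraries were scaled to a common sum. PRIM1, the DNA primase, was the 1 replication gene that fell, 1.96-fold.

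The cell cycle homology region, TTTGAA, was in 17 of 32 G2/M promoters (53.1%) against 8.21% of all promoters. It was in 7.02% of promoters of genes at least 2-fold higher and in 8.10% of those at least 2-fold lower. The match nearest the start is shown in capitals for a mitotic kinase that rose, for the gene with the steepest rise of the list and for the kinase that fell.
PLK1: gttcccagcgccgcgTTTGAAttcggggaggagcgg
MKI67: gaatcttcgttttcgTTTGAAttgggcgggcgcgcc
CDK1: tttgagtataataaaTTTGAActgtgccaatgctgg
These windows were at chr16:23678845-23678880 (PLK1), chr10:128126432-128126467 (MKI67) and chr10:60778155-60778190 (CDK1), the letters beginning 29, 29 and 161 bases before the gene's start.

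Genes of p53 and of cell death were mixed. Of 27 p53 targets 11 rose and 4 fell, which turned to 5 and 11 with median-of-ratios scaling; GDF15 fell 1.65-fold, which was not called on a common sum. Of 27 apoptosis and pyroptosis genes 13 rose and 3 fell (9 and 11 with median-of-ratios scaling). TNFRSF10B, the death receptor DR5, went from 14.4, 13.3 and 13.5 to 42.5, 53.3 and 47.004 FPKM and the BH3 gene BMF rose 3.36-fold, whereas the inflammatory caspase CASP4 went from 208, 217 and 227 to 117, 119 and 117 FPKM.

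**Figure D4:**
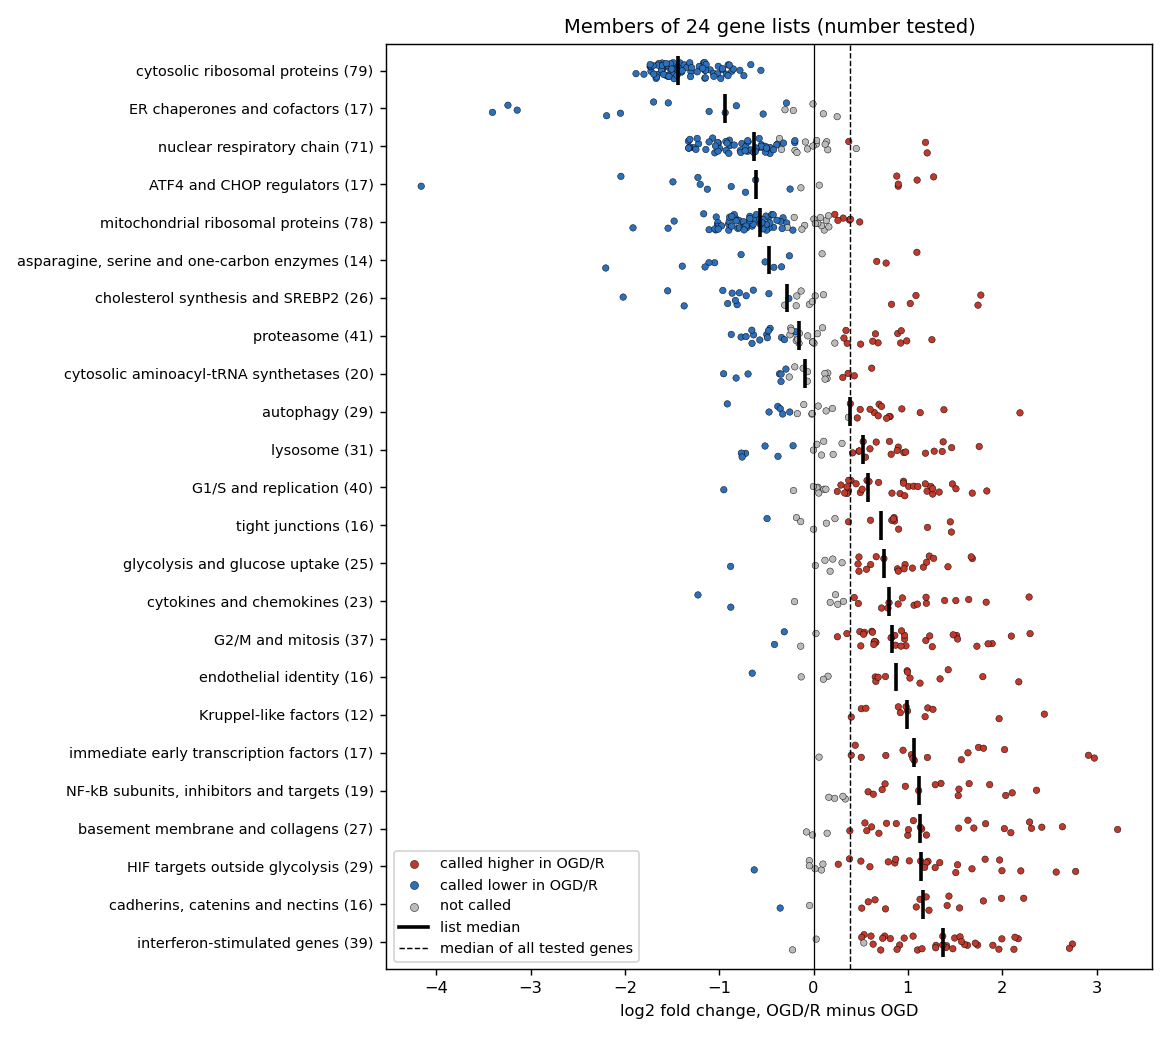
Log2 fold change (OGD/R minus OGD, horizontal axis) of each tested member of 24 gene lists, ordered by their median; points are genes coloured by limma call, the heavy bar is the list median, and the dashed line the median of all tested genes, 0.39. Cytosolic ribosomal proteins lie wholly below 0, with a median of -1.43, and interferon-stimulated genes have a median of 1.37.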

How the data were processed

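RNA of hCMEC/D3 cells was sequenced in 9 libraries, built from total RNA with the SMARTer mRNA-Seq kit per the labels' protocols. The authors deposited 1 FPKM value per gene and library; the build was GRCh38 per the submitters' processing notes, and which aligner, counter, annotation and strand setting were used is not given in the sources used here. Whole reads could not be recovered: among 401 genes under 0.05 FPKM in OGD replicates 1 and 2, the most common ratio (to 2 decimals of log2) was shared by 9. Depth is therefore unknown. Groups and replicate numbers came from the sample titles.

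After the addition of 1 and log2 transformation, FPKM went into limma 3.58.1 (R 4.3.3), 9 libraries in 1 fit of 3 groups, an intensity trend in eBayes and the 2-sided contrast OGD/R minus OGD, adjusted by Benjamini-Hochberg over 10818 genes. The fit had 6 residual and 6.33 prior degrees of freedom and was tested on simulated data. Alternatives were other pseudocounts, filters, scalings and priors, a replicate block and each library left out. Members and gene lists were chosen with earlier results of these data known. Lists are given as counts and medians, with no set test. Named genes were the 10 largest called changes each way (at least 10 FPKM in the higher group, no overlap of replicates), up to 4 called genes per list in its main direction and 2 in the other (at least 3 FPKM), and a set of stress, barrier and inflammation genes; the other genes named hold a promoter match or are cell markers, and some genes that the rule names are not reported here. No gene was at 0 in 1 group and at 3 FPKM or more in the other. Transcript lengths were the longest protein-coding transcripts of GENCODE 29, known for 10792 genes, and the length trend was removed per library by loess. Gene and promoter coordinates and sequences were from RefSeq, GRCh38.p14, by NCBI Gene identifier. Figures used matplotlib 3.10.9.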

Additional observations from a re-analysis of the deposited data

How the results depend on the processing

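With median-of-ratios scaling 3432 genes were higher and 3783 lower (693 and 1170 at least 2-fold), and with quantile normalization 3399 and 3386 (700 and 635). With the length trend removed the counts were 3228 and 3165 (581 of them at least 2-fold higher). On a common sum 7748 were higher and 840 lower (4238 and 147 at least 2-fold). A pseudocount of 3 left 961 genes at least 2-fold higher. The gap in median log2 change between the longest and the shortest genes was 0.955 with 5 groups of length in place of 10. The other settings (pseudocount 0.1, no filter, a filter over 6 libraries, 6 libraries in the fit, a robust prior, no trend) kept each count within 1.5 times, except where named here. Leaving out 1 library gave 5154 to 5917 genes higher and 1668 to 1991 lower (1613 to 2087 and 348 to 424 at least 2-fold). With the replicate number as a block, 5634 genes were higher and 1818 lower, and no named gene changed its call. No pairing by number was seen. Deviations of same-numbered OGD and OGD/R libraries correlated at -0.13, -0.11 and -0.045, and no OGD library correlated best with its own number. With 3 libraries per group these correlations cannot tell whether the libraries were paired.

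Of 175 named genes, 166 kept their direction and their side of the threshold with median-of-ratios scaling, 164 with quantile normalization, 166 on a common sum and 164 of those with a known length with the length trend removed. Directions turned for HIF1A, TIMP1 and CD68 with median-of-ratios scaling (log2 change -0.10, -0.048 and -0.15), for OCLN and ABCB1 with quantile normalization (-0.45 and -0.070), for HIF1A, OCLN, PECAM1 and ABCB1 with the length trend removed (-0.19, -0.54, -0.024 and -0.24), and for CDK1 and MAD2L1 on a common sum (0.11 and 0.0016). The cause was not tested. Unknown read depth limits what can be said of low genes, such as PECAM1 and ABCB1.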

Other observations

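The deposited table assigns genes to KEGG pathways, which were counted after the values were seen, with no test. Among pathways with at least 15 tested genes, ECM-receptor interaction had the highest median log2 change on the deposited scale, 0.999, with 34 of 39 genes higher in OGD/R and 0 lower, and Ribosome the lowest, -1.14, with 119 of 129 genes lower and 1 higher. In the pathway of hyaluronan and heparan sulfate breakdown (glycosaminoglycan degradation) 12 of 15 genes were higher and 0 lower. All 22 tested genes of the pathway Hippo signaling, multiple species, were higher. Adherens junction had 49 of 63 genes higher and 3 lower. Among pathways outside the ribosome and the respiratory chain, Glycine, serine and threonine metabolism had 11 of 20 genes lower and 4 higher (median -0.43). Protein export, which holds the signal peptidase and the translocon, had 13 of 23 genes lower and 7 higher (median -0.36). Of all tested genes 53.3% were higher and 17.4% lower. These counts are on the deposited scale, and other scales are not given for the glycosaminoglycan, Hippo and adherens junction pathways. Relative to all genes and with the length trend removed, the medians were 0.32 for ECM-receptor interaction, -0.88 for Ribosome and -0.47 for Protein export, and ECM-receptor interaction no longer ranked highest: Viral protein interaction with cytokine and cytokine receptor did, at 0.88.

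Some genes were listed at 0 in single libraries and above 10 FPKM in others, which was so for 7 genes. SCG5, a chaperone of prohormone convertase, read 2.06, 11.1 and 4.85 FPKM in OGD and 0.494, 0.308 and 0.340 in OGD/R, and is listed at 0 in control replicate 2.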
